A study of Rattus norvegicus with 12 samples.

Results

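Fatty acid handling was examined in adult rat ventricular myocytes (ARVMs) that overexpressed the nuclear receptor NR4A2. The genes considered are 38 genes of fatty acid uptake, activation, carnitine transfer, β-oxidation, malonyl-CoA control and uncoupling, taken by gene name from the expression tables, which hold 17301 names. They correspond to 39 of 18752 transcripts, since Echs1 is listed at 2 places. All 38 were above 0 in all samples and were therefore tested. ARVMs of both groups came from male adult Sprague Dawley rats, were cultured alike in a medium with albumin, insulin and a lipid concentrate, and received an adenovirus at 50 MOI (multiplicity of infection, viral particles able to infect per cell). The 6 Ad-GFP samples received a control virus that encodes enhanced green fluorescent protein. The 6 Ad-h-NR4A2 samples received a virus with the complete human NR4A2 cDNA, driven by the CMV promoter, which is active in most cell types. RNA was taken 48 h after transduction. The study describes 6 separate experiments with myocytes of different rats, and each group carries the sample numbers 24 to 29.

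Long-chain fatty acids are the main fuel of the adult heart. They are released from lipoproteins by lipoprotein lipase, enter through the CD36 and FATP proteins, are bound by FABP3 in the cytosol, and are activated to acyl-CoA by the ACSL enzymes. CPT1 on the outer mitochondrial membrane commits acyl-CoA to import and is inhibited by malonyl-CoA, and the β-oxidation spiral then shortens the chain inside the mitochondrion. NR4A2 (Nurr1) is an orphan nuclear receptor of the NR4A family that binds, as a monomer, a DNA element called NBRE.

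The transduced gene was examined first. Nr4a2 ranged from 0.626 to 1.40 FPKM (fragments per kilobase of transcript, scaled to the mapped fragments; median 0.787) in Ad-GFP samples and from 445 to 592 FPKM (median 533) in Ad-h-NR4A2 samples, and the ranges lay far apart (log2 fold change 9.10, adjusted p = 6.59e-13, SE 0.17). Reads of the human transgene count here only where they align to the rat transcript. The depth implied by the smallest steps between low values was 18800000 to 28000000 fragments in Ad-GFP samples and 21600000 to 27300000 in Ad-h-NR4A2 samples.

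Cell markers were then considered. The summed FPKM of 6 cardiomyocyte markers was 18589 to 23843 in Ad-GFP and 16208 to 19872 in Ad-h-NR4A2 samples. Of the 6, 4 were called lower (Myh6, Myh7, Tnnt2 and Mybpc3), against 21.7% of all genes tested. The log2 fold change was -0.59 for Mybpc3 and -0.56 for Myh6. Sums were far smaller for 6 fibroblast markers (9.04 to 30.1 against 5.80 to 26.4) and 5 endothelial markers (6.46 to 20.6 against 5.48 to 19.8). The same held for 3 smooth muscle markers (7.04 to 20.2 against 6.83 to 16.5) and 5 adipocyte markers (1.73 to 3.60 against 1.14 to 3.18). Markers at 0 in a sample were not tested. Of those tested, 1 of 5 fibroblast, 0 of 5 endothelial, 1 of 3 smooth muscle and 0 of 2 adipocyte markers were lower. In these lists none was higher. The sum of 4 macrophage markers was 6.06 to 17.3 against 38.9 to 45.4. This difference lay in Csf1r and Cd14, both higher, whereas Cd68 averaged 0.463 and 0.482 FPKM and Ptprc stayed at or below 0.0489 FPKM in every sample. The part of these marker differences in the results given next was not tested, and less RNA per myocyte cannot be told apart from fewer myocytes.

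The comparison used limma over 10950 genes, with fold changes on the log2(FPKM + 0.1) scale and Benjamini-Hochberg adjusted p-values. At low FPKM, the added 0.1 makes a fold change appear too small. At an adjusted p below 0.05, 6 of the 38 genes were higher in Ad-h-NR4A2 samples (Slc27a1, Cpt1a, Acadm, Acaa1a, Ucp2 and Ucp3), which is 15.8%, against 19.3% of all genes tested. Lower were 11 genes (Fabp3, Lpl, Acsl1, Acsl3, Cpt1b, Hadha, Acot1, Acot2, Mlycd, Acaca and Acacb), which is 28.9%, against 21.7% of all genes. The remaining 21 did not pass. The median log2 fold change was -0.08 over the 38 genes and -0.02 over all genes.

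Requiring in addition a ratio of group means of at least 1.5 left 3 higher genes (Cpt1a, Ucp2 and Ucp3, background 7.94%) and 4 lower genes (Fabp3, Acsl1, Acsl3 and Acot1, background 7.24%). The latter number was 2 without Ad-GFP sample 24, without Ad-GFP sample 27 or without Ad-h-NR4A2 sample 29, since Acot1 rests on few fragments and the ratio of Acsl1, 0.666, lies at the limit. The groups did not overlap for 3 higher genes (the same 3, background 10.9%) and 7 lower genes (Fabp3, Lpl, Acsl1, Acsl3, Cpt1b, Hadha and Mlycd, background 10.6%). When the fit paired samples by their number (replicate block), 8 genes (21.1%) were higher and 20 (52.6%) lower, against 27.1% and 32.3% of all genes tested in the same fit. The added calls were Cpt2 and Acaa2 among the higher genes and Crat, Acadl, Acads, Acadvl, Eci2, Decr1, Etfa, Etfb and Pdk4 among the lower genes. All 6 same-numbered pairs differed upward in 7 of the 38 genes (18.4%, against 24.1% of all genes) and downward in 18 (47.4%, against 29.1%).

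**Figure D1:**
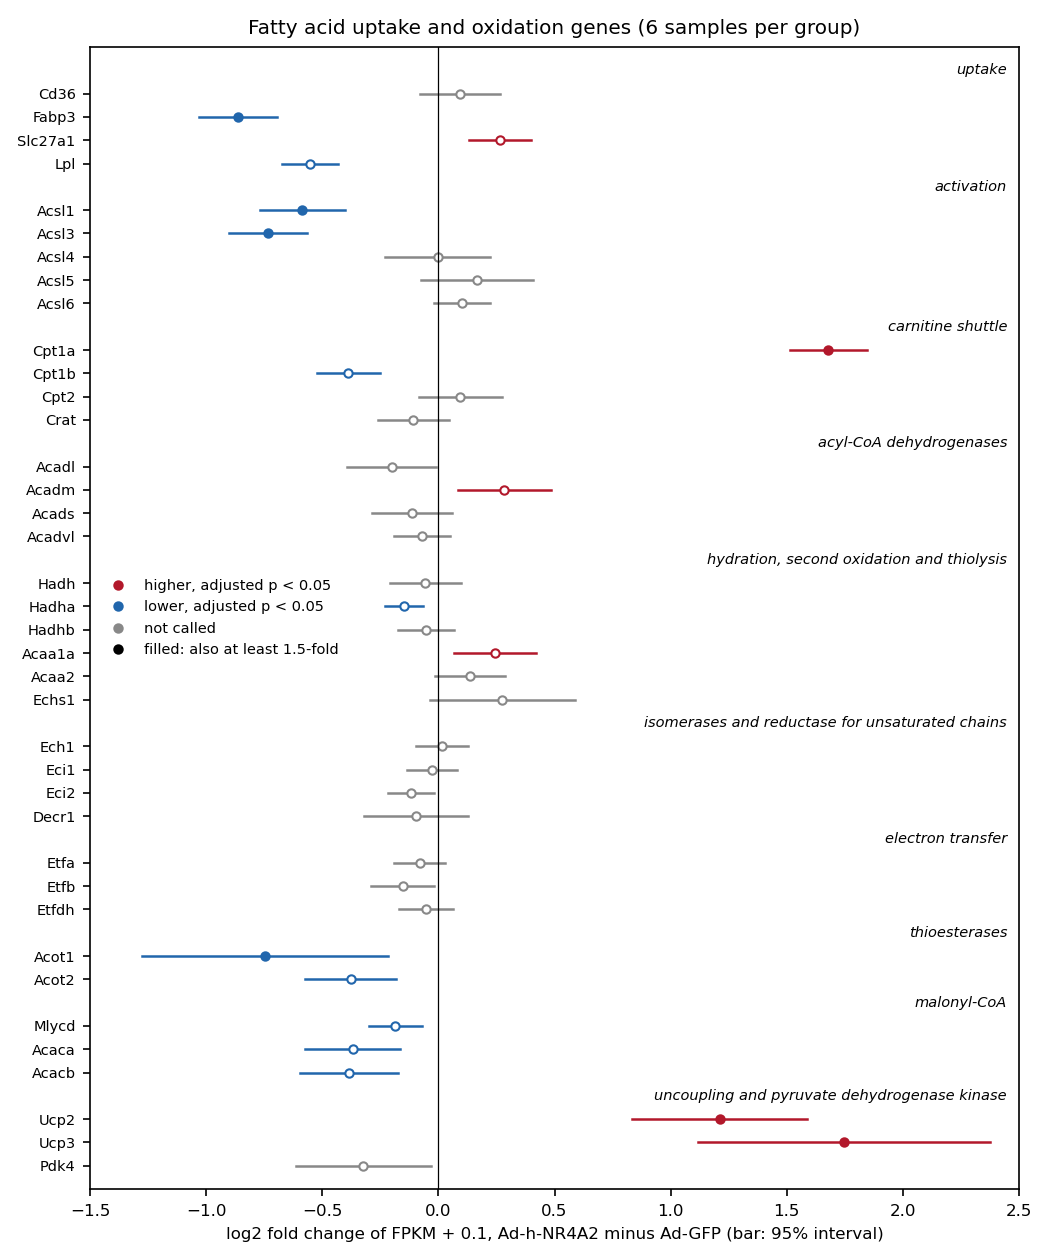
Log2 fold change of FPKM + 0.1 (x axis, Ad-h-NR4A2 minus Ad-GFP, 6 samples per group) for each of the 38 genes (y axis), grouped by role, with bars for the 95% interval from limma. Cpt1a, Ucp2 and Ucp3 stand apart on the right at 1.68, 1.21 and 1.75, Fabp3 is farthest to the left at -0.86, and most enzymes of the spiral lie near 0.

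Summed, the 38 genes made up 2.03% to 2.32% of all FPKM in Ad-GFP samples and 1.81% to 1.98% in Ad-h-NR4A2 samples. Of the difference in mean sum, 15747 against 13872 FPKM, most lay in the 4 uptake genes, which summed to 3754 ± 326 FPKM (SD, n = 6) and 2236 ± 168 FPKM. Within these 4, Fabp3 fell from 3111 to 1713 FPKM on average and Lpl from 420 to 285 FPKM. Cd36 and Slc27a1 did not fall. The 6 genes of hydration, second oxidation and thiolysis summed to 4009 ± 168 and 3913 ± 106 FPKM, and their ranges overlapped. In Ad-GFP samples, 23 of the 38 genes averaged at least 100 FPKM, 13 lay between 1 and 100, and Echs1 and Acot1 lay under 1.

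Promoter sequence from RefSeq (build GRCr8, 250 bases before to 50 after the gene start) was matched by symbol for 31 of the 38 genes. Lpl, Cpt1b, Acadl, Acaa2, Ech1, Decr1 and Acaca had no match. Both strands were searched for the NBRE letters AAAGGTCA, for the half-site AGGTCA, which the NBRE contains, and for the DR1, a pair of AGGTCA half-sites in the same direction with 1 base between them. The NBRE letters occurred in 1 of 31 promoters (Acacb) and in 1.43% of all 33469 promoters. The half-site occurred in 8 of 31 (25.8%) and in 16.2% of all, and the exact DR1 in 0 of 31 and in 0.0538% of all. Below, the 250 bases before the start are printed for genes on which the results turn. They are in lower case, with motif letters that lie wholly before the start in capitals. A match describes letters only.

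Uptake was examined first. Fabp3, the cytosolic fatty acid binding protein of heart and muscle, was the most abundant of the 38 genes. Its FPKM was 2824 to 3555 (median 3092) in Ad-GFP samples and 1398 to 1864 (median 1749) in Ad-h-NR4A2 samples. All Ad-h-NR4A2 samples thus lay below all Ad-GFP samples. Mean FPKM fell by 44.9%, from 3111 ± 285 to 1713 ± 170 (SD, n = 6), with a log2 fold change of -0.86 (adjusted p = 1.56e-06, SE 0.08). In an exact permutation test over the 924 divisions of the samples into 6 and 6, p was 0.00216, the smallest that can be reached. This test takes the samples as unpaired and does not use their numbers. Its upstream sequence, shown because Fabp3 had the largest fall in FPKM, holds none of the motif letters and is rich in G and C (65.6%). It lies on the plus strand of GRCr8 at chr5:147935875-147936124.
Fabp3: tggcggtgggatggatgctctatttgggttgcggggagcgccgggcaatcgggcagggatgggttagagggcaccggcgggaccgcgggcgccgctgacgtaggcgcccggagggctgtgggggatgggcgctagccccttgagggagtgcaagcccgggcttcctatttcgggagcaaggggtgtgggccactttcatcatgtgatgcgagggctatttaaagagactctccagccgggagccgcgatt

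Lpl, the lipase that frees fatty acids from lipoproteins, was 387 to 480 FPKM (median 407) in Ad-GFP and 267 to 308 FPKM (median 283) in Ad-h-NR4A2 samples. The groups did not overlap, and the log2 fold change was -0.56 (adjusted p = 4.02e-06, SE 0.06), a ratio of 0.680. Slc27a1, which encodes the transport protein FATP1, rose slightly, from 11.7 ± 0.84 to 14.0 ± 0.86 FPKM (log2 fold change 0.26, adjusted p = 0.00383, SE 0.06), and was higher in all 6 pairs. Cd36, the main fatty acid translocase, averaged 211 ± 24.6 and 224 ± 19.9 FPKM. Its difference did not pass (log2 fold change 0.09, 95% interval -0.08 to 0.26).

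Activation to acyl-CoA depends on 5 ACSL isoforms. Acsl1, the main isoform of heart, was 233 to 299 FPKM (median 272) in Ad-GFP and 159 to 218 FPKM (median 170) in Ad-h-NR4A2 samples. No value of one group reached the other, and the log2 fold change was -0.59 (adjusted p = 9.92e-05, SE 0.08). Acsl3, an isoform of endoplasmic reticulum and lipid droplets, was much less abundant, with 6.82 to 7.90 FPKM in Ad-GFP and 3.76 to 5.03 FPKM in Ad-h-NR4A2 samples (medians 7.61 and 4.505). It also fell without overlap (log2 fold change -0.73, adjusted p = 7.30e-06, SE 0.08). Acsl4, Acsl5 and Acsl6 averaged 5.90, 3.12 and 9.91 FPKM in Ad-GFP samples and 5.86, 3.50 and 10.7 FPKM in Ad-h-NR4A2 samples, and none of them passed the test. Summed FPKM of the 5 isoforms was 293 ± 28.2 and 202 ± 22.4 (SD, n = 6), and Acsl1 made up 90.9% ± 0.93 and 87.8% ± 1.18 of it.

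**Figure D2:**
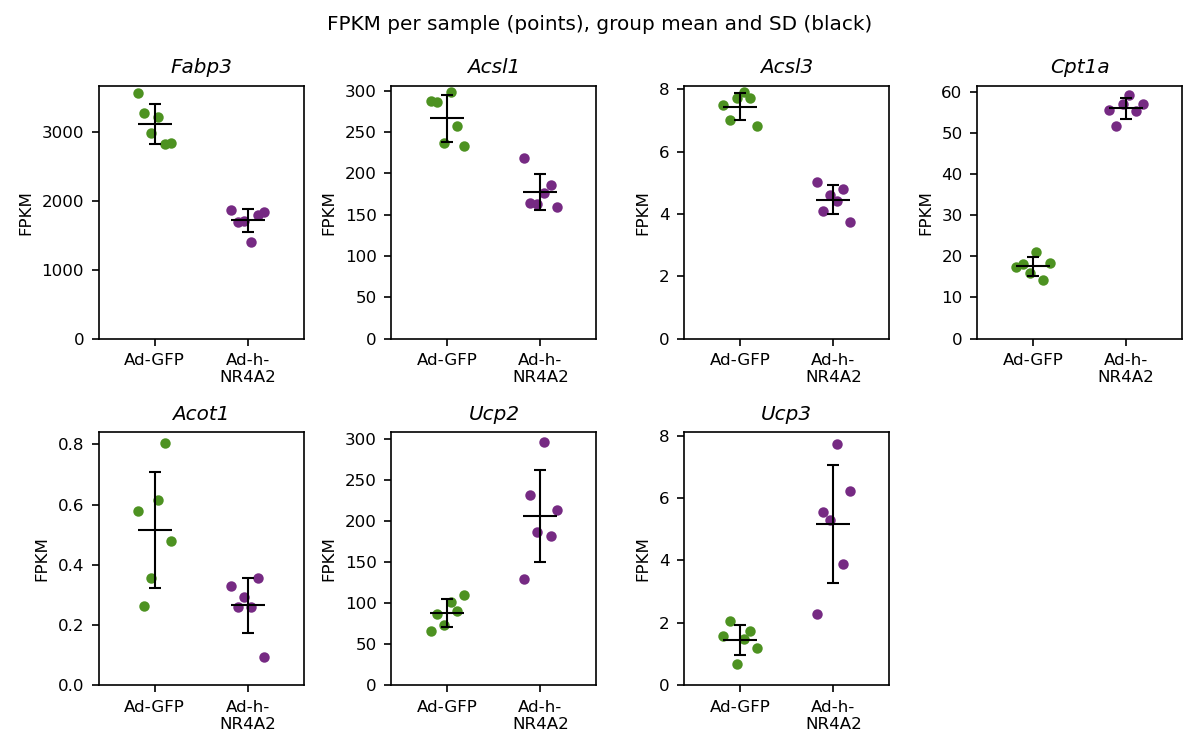
FPKM (y axes from 0) in each sample for the 7 genes with an adjusted p below 0.05 and a ratio of at least 1.5, with points for samples and black bars for the mean and SD of 6 samples. Fabp3, Acsl1 and Acsl3 lie lower and Cpt1a, Ucp2 and Ucp3 higher in Ad-h-NR4A2 samples without overlap, whereas the Acot1 groups overlap below 1 FPKM.

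The carnitine shuttle starts with CPT1, of which heart expresses a muscle isoform (Cpt1b) and the isoform typical of liver (Cpt1a). Cpt1a was 14.3 to 21.0 FPKM (median 17.7) in Ad-GFP and 51.6 to 59.1 FPKM (median 56.3) in Ad-h-NR4A2 samples. The lowest Ad-h-NR4A2 value exceeded the highest Ad-GFP value by a wide margin. The mean ratio was 3.20 and the log2 fold change 1.68 (adjusted p = 2.87e-09, SE 0.08). Within pairs, the log2 ratio of FPKM, here without the added 0.1, lay between 1.49 and 1.96. The values rest on 1409 to 5952 fragments per sample. Cpt1b, in contrast, was 223 to 254 FPKM (median 234) in Ad-GFP and 160 to 204 FPKM (median 179) in Ad-h-NR4A2 samples, again without overlap. It fell with a log2 fold change of -0.39 (adjusted p = 2.60e-04, SE 0.06).

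The opposite changes nearly offset each other in the CPT1 sum, which averaged 253 ± 10.0 and 237 ± 19.4 FPKM (SD, n = 6) with overlapping ranges. The share of Cpt1a in this sum averaged 6.93% ± 0.96 in Ad-GFP samples (highest 8.20%) and 23.8% ± 1.90 in Ad-h-NR4A2 samples (lowest 21.5%). Cpt1b remained the more abundant isoform in all 12 samples. In Rn5 the Cpt1a transcript spans chr1:225437309-225497586. Its upstream sequence, printed because Cpt1a had the smallest adjusted p of the 38 genes, contains none of the motif letters (GRCr8 plus strand, chr1:209995910-209996159).
Cpt1a: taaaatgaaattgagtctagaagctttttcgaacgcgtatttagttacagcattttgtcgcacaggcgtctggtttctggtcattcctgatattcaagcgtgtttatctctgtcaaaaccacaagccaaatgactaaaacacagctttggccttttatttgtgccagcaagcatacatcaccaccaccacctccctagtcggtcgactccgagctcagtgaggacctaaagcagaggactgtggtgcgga

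**Figure D3:**
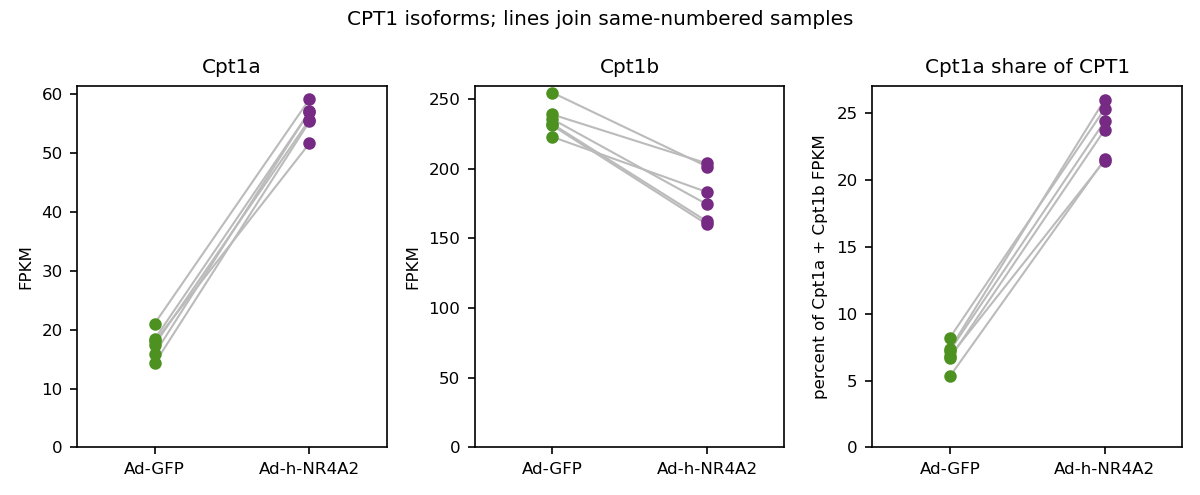
FPKM of Cpt1a and Cpt1b, and the percentage of Cpt1a in their sum (y axes), for each sample by group, with lines between same-numbered samples. All 6 lines rise for Cpt1a and fall for Cpt1b, and the Cpt1a share moves from 6.93% to 23.8% on average.

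Cpt2, which reforms acyl-CoA on the inner membrane, averaged 228 and 243 FPKM. It did not pass the unpaired test (log2 fold change 0.09, adjusted p = 0.391, SE 0.08), was higher in all 6 pairs, and passed with the replicate block (adjusted p = 0.00507). Crat, which transfers acetyl groups to carnitine and had the highest FPKM of the shuttle genes, was 255 to 306 FPKM (median 270) and 231 to 303 FPKM (median 243). The ranges overlapped, although the Ad-h-NR4A2 median lay below the lowest Ad-GFP value. Its log2 fold change was -0.11 (adjusted p = 0.244, SE 0.07, and adjusted p = 0.0208 with the replicate block).

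The first step of each β-oxidation cycle is made by acyl-CoA dehydrogenases of different chain length. Acadl (long-chain) was 1434 to 1886 FPKM (median 1538) in Ad-GFP and 1271 to 1665 FPKM (median 1333) in Ad-h-NR4A2 samples. The groups overlapped, although Acadl was lower in each of the 6 pairs. Its log2 fold change was -0.20 (adjusted p = 0.0837, SE 0.09, and adjusted p = 2.23e-04 with the replicate block). It also passed without Ad-h-NR4A2 sample 28 (adjusted p = 0.0290) and with quantile normalization (0.0477). Acadm (medium-chain), the single gene of the group that was called, rose from 995 ± 128 to 1210 ± 143 FPKM (log2 fold change 0.28, adjusted p = 0.0255, SE 0.09) and was higher in all 6 pairs. This call was lost without Ad-GFP sample 24, 26 or 29 (adjusted p = 0.0559, 0.0582 and 0.0531) and without Ad-h-NR4A2 sample 25 or 27 (0.0581 and 0.0516), and with the replicate block adjusted p was 1.11e-04. Acads (short-chain) and Acadvl (very long-chain) had log2 fold changes of -0.11 and -0.07 and passed only with the block (adjusted p = 0.00417 and 0.0326). Both were lower in all 6 pairs. As a whole, the 4 dehydrogenases summed to 3418 ± 366 and 3370 ± 318 FPKM.

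Of the 6 genes of the later steps, 1 was higher and 1 lower, against 19.3% and 21.7% of all genes tested. Hadhb, the thiolase subunit of the mitochondrial trifunctional protein, was 1985 to 2484 FPKM (median 2252) in Ad-GFP and 2008 to 2245 FPKM (median 2146) in Ad-h-NR4A2 samples, and thus second in abundance among the 38 genes. The ranges overlapped (log2 fold change -0.05, 95% interval -0.17 to 0.07). Hadha, the partner subunit, fell by 9.79% without overlap (773 ± 27.8 and 697 ± 23.4 FPKM, log2 fold change -0.15, adjusted p = 0.00594, SE 0.04). In Rn5 the listed regions of Hadhb and Hadha are 300 bases apart on chr6. Hadh, the short-chain hydroxyacyl-CoA dehydrogenase, averaged 263 and 253 FPKM and was not called.

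Acaa2, the mitochondrial thiolase, averaged 742 ± 66.3 and 816 ± 69.3 FPKM, was higher in all 6 pairs, and was called only with the replicate block (log2 fold change 0.14, adjusted p = 0.133, and 9.08e-04 with the block). Acaa1a, the peroxisomal thiolase, rose from 14.2 ± 1.78 to 16.8 ± 1.21 FPKM (log2 fold change 0.24, adjusted p = 0.0281, SE 0.08). The call was lost without Ad-GFP sample 25 or 28 (adjusted p = 0.0638 and 0.0609) and without Ad-h-NR4A2 sample 26 or 27 (0.0573 and 0.0648). Echs1, the enoyl-CoA hydratase, is listed at 2 loci of chr1 in Rn5 with 16 to 42 fragments each, so that its level is uncertain. The highest values at the 2 loci were 1.07 and 1.40 FPKM. Why both were low was not tested. The locus used had 0.881 and 1.10 FPKM on average and was not called (adjusted p = 0.148), except without Ad-h-NR4A2 sample 24 (0.0356). The other locus ranged from 0.516 to 1.07 FPKM in Ad-GFP and from 0.570 to 0.936 FPKM in Ad-h-NR4A2 samples. Its mean did not rise. With both loci summed, the log2 fold change was 0.10 (adjusted p = 0.590), against 0.27 for the locus used.

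Unsaturated chains need auxiliary isomerases and a reductase. Ech1, a dienoyl-CoA isomerase and the most abundant of these genes, was 480 to 611 FPKM (median 536) in Ad-GFP and 508 to 574 FPKM (median 552) in Ad-h-NR4A2 samples. The Ad-h-NR4A2 range lay inside the Ad-GFP range, and the log2 fold change was 0.02 (95% interval -0.10 to 0.13). Eci1 and Eci2, both enoyl-CoA isomerases, and Decr1, the dienoyl-CoA reductase, had log2 fold changes of -0.03, -0.12 and -0.10. None of the 4 passed the unpaired test. Eci2 and Decr1 were lower in all 6 pairs and passed with the replicate block (adjusted p = 0.00231 and 0.00368). Eci2, close to the threshold at an adjusted p of 0.0517, also passed without Ad-GFP sample 29 (0.0499) and without Ad-h-NR4A2 sample 25 or 28 (0.0258 and 0.0418). Normalization mattered as well, since Eci2 passed on the TPM scale (0.0276) and with quantile normalization (0.0142).

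Electrons of the first step pass to the electron transfer flavoprotein, whose subunits are Etfa and Etfb, and to its dehydrogenase Etfdh. Etfa was 754 to 878 FPKM (median 788) in Ad-GFP and 712 to 832 FPKM (median 747) in Ad-h-NR4A2 samples. These ranges overlapped widely (log2 fold change -0.08, adjusted p = 0.218, SE 0.05, and 0.0272 with the replicate block). Etfb was lower in all 6 pairs, with a log2 fold change of -0.15 (adjusted p = 0.0677, and 0.00107 with the block). It passed without Ad-GFP sample 28 (0.0298) and without Ad-h-NR4A2 sample 27 (0.0401). Counting the replicate block, Etfb passed in 5 of the 21 alternatives and Etfa in 2. Etfdh averaged 340 and 328 FPKM and did not pass in either fit.

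Thioesterases release fatty acids from acyl-CoA again. Acot2, the mitochondrial enzyme, was 55.5 to 78.0 FPKM (median 62.7) in Ad-GFP and 42.5 to 57.3 FPKM (median 47.2) in Ad-h-NR4A2 samples. The ranges touched in a narrow interval, and Acot2 was lower in all 6 pairs (log2 fold change -0.38, adjusted p = 0.00463, SE 0.09). Acot1, the cytosolic enzyme encoded 17565 bases away on chr6 of Rn5, was 0.264 to 0.804 FPKM (median 0.529) and 0.0923 to 0.356 FPKM (median 0.276). These values overlapped and rest on 3 to 31 fragments per sample. The log2 fold change was -0.75 (adjusted p = 0.0266, SE 0.25), and the call was lost without Ad-GFP sample 24, 27 or 28 (0.0516, 0.0543 and 0.0587) and without Ad-h-NR4A2 sample 29 (0.0501). With a pseudocount of 1 or 0.01 in place of 0.1, the log2 fold change was -0.26 or -0.96, and the call was kept (0.0224 and 0.0342). The paralogs are similar in sequence, so that the few Acot1 fragments are uncertain.

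Malonyl-CoA, the inhibitor of CPT1, is made by acetyl-CoA carboxylases (Acaca and Acacb) and removed by malonyl-CoA decarboxylase (Mlycd). All 3 genes were called lower, against 21.7% of all genes tested. Mlycd was 62.9 to 78.4 FPKM (median 66.1) in Ad-GFP and 57.4 to 62.2 FPKM (median 60.7) in Ad-h-NR4A2 samples, which did not overlap by a small margin (log2 fold change -0.19, adjusted p = 0.0130, SE 0.05). Acacb, the carboxylase at the mitochondrial surface, averaged 48.5 ± 4.95 and 37.3 ± 5.73 FPKM (log2 fold change -0.39, adjusted p = 0.00636, SE 0.10). Acaca, the cytosolic carboxylase, averaged 10.0 ± 1.00 and 7.77 ± 1.05 FPKM (log2 fold change -0.37, adjusted p = 0.00699, SE 0.09). Both carboxylases overlapped between groups and were lower in all 6 pairs. The Acaca share of the carboxylase sum averaged 17.2% ± 2.32 and 17.3% ± 1.75. The Acacb promoter was the only one of the 31 with the NBRE letters, here on the opposite strand from 155 to 148 bases before the start, and is therefore shown (GRCr8 minus strand, chr12:48138215-48138464). The capitals mark these letters as read on the gene's strand. A further half-site, in the direction of the gene, runs from 3 bases before to 3 bases after the start. It is cut by the end of the printed sequence and is not in capitals.
Acacb: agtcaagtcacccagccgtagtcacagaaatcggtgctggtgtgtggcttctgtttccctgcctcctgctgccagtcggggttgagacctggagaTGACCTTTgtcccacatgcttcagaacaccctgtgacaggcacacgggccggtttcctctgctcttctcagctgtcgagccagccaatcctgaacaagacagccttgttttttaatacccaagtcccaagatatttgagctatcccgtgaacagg

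Uncoupling proteins of the inner mitochondrial membrane rose. Ucp2, the widely expressed member, was 65.5 to 110 FPKM (median 88.4) in Ad-GFP and 129 to 297 FPKM (median 200) in Ad-h-NR4A2 samples. The groups did not overlap, and sample 24 was the lowest of both. The mean ratio was 2.35 and the log2 fold change 1.21 (adjusted p = 9.77e-05, SE 0.17), with pairwise log2 differences of 0.95 to 1.56. Ucp3, the muscle member, was 0.661 to 2.05 FPKM (median 1.52) and 2.26 to 7.74 FPKM (median 5.42), which again did not overlap. Its ratio was 3.58 and its log2 fold change 1.75 (adjusted p = 3.29e-04, SE 0.29), but the pairs differed more, from 0.54 to 3.00, and values rest on 32 to 374 fragments. Despite the larger ratio of Ucp3, Ucp2 made up 98.3% ± 0.61 and 97.6% ± 0.43 of the sum of both.

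Ucp3 and Ucp2 are neighbours on chr1, at chr1:171683566-171697139 and chr1:171707621-171713990 of Rn5, with 10481 bases between these regions. Their upstream sequences are given because both genes rose and lie side by side. In Ucp3 the capitals mark 2 half-sites in the direction of the gene, from 155 to 150 and from 50 to 45 bases before the start, and Ucp2 has no motif letters. The regions are on the plus strand of GRCr8, Ucp3 at chr1:164227660-164227909 and Ucp2 at chr1:164251123-164251372.
Ucp3: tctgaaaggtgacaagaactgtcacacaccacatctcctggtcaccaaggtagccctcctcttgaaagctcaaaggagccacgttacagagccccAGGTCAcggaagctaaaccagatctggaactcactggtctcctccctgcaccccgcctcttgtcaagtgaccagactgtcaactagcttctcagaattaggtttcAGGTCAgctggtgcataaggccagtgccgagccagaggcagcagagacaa
Ucp2: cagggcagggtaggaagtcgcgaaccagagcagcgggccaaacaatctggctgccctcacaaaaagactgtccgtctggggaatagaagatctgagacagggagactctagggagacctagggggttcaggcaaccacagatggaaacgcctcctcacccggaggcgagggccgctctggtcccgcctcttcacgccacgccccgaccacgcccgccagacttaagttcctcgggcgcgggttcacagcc

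Pdk4, the kinase that inactivates pyruvate dehydrogenase and thereby spares glucose, was 162 to 247 FPKM (median 192) in Ad-GFP and 122 to 202 FPKM (median 163) in Ad-h-NR4A2 samples. The groups overlapped, with lower values in the Ad-h-NR4A2 sample of all 6 pairs. The log2 fold change was -0.32 (adjusted p = 0.0700, SE 0.13, and adjusted p = 0.00164 with the replicate block). It also passed without Ad-GFP sample 27 (0.0419) and without Ad-h-NR4A2 sample 28 (0.0289).

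Other genes of fatty acid handling were listed for comparison. Of 82 such genes, 70 were above 0 in all samples. Of these, 15 were higher, 19 lower and 36 not called, against the 19.3% and 21.7% of all genes given above, and with the replicate block 20 were higher and 32 lower, against 27.1% and 32.3% of all genes in that fit. Among 7 genes of uptake and binding, Angptl4, a secreted inhibitor of lipoprotein lipase, was the only one called without pairing, and Slc27a3 was added with the replicate block (adjusted p = 0.00432). Angptl4 was 2.72 to 11.1 FPKM (median 3.38) in Ad-GFP and 19.9 to 99.9 FPKM (median 53.0) in Ad-h-NR4A2 samples. The groups did not overlap, and its log2 fold change was 3.64 (adjusted p = 5.58e-06, SE 0.38). Its ratio of 12.4 exceeded that of every one of the 38 genes. In the same samples Lpl had a ratio of 0.680.

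Among 11 regulators, 2 were higher and 7 lower, against 19.3% and 21.7% of all genes tested. The nuclear receptors Ppara, Ppard, Pparg, Rxra and Esrrg fell, as did the AMP-activated kinase subunits Prkaa1 and Prkaa2. Esrrg, an estrogen-related receptor that drives oxidative genes, fell most, from 22.3 ± 1.63 to 11.6 ± 3.02 FPKM (log2 fold change -0.97, adjusted p = 6.05e-05, SE 0.13). Nrip1, a corepressor of nuclear receptors, rose from 5.95 ± 0.32 to 18.4 ± 1.67 FPKM (log2 fold change 1.61, adjusted p = 1.32e-09, SE 0.07). Ppargc1b, a coactivator of oxidative metabolism, rose from 5.43 ± 0.93 to 9.99 ± 1.53 FPKM. Esrra and Ppargc1a were not called without pairing, with log2 fold changes of 0.06 and -0.30, and passed with the replicate block (adjusted p = 0.0402 and 0.00655).

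Peroxisomal genes were higher in 4 of 10 cases and lower in 0, against 19.3% and 21.7% of all genes tested. The replicate block added Decr2 to the higher genes (adjusted p = 0.0468). Hsd17b4, the peroxisomal bifunctional enzyme, rose from 102 ± 2.85 to 238 ± 34.4 FPKM (log2 fold change 1.21, adjusted p = 9.42e-08), and Abcd2, a peroxisomal transporter, from 0.0684 to 0.369 FPKM (log2 fold change 1.40). Of 12 lipid droplet genes, 2 were higher and 5 lower. With the replicate block 8 were lower, against 32.3% of all genes in that fit. Plin2, a droplet coat protein, rose from 92.3 ± 25.8 to 166 ± 46.7 FPKM. The hormone-sensitive lipase gene Lipe fell from 6.44 to 3.41 FPKM and was lower in all 6 pairs, as was G0s2, an inhibitor of triglyceride lipolysis, which fell from 69.2 ± 17.6 to 33.4 ± 20.4 FPKM. In the synthesis list 1 of 4 genes was higher, the desaturase Scd1 (0.756 ± 0.318 to 2.19 ± 0.95 FPKM), and 1 was lower (3 with the replicate block).

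Of 7 pyruvate dehydrogenase genes, 2 were higher and 1 was lower (4 and 2 with the replicate block). For all genes tested the shares were 19.3% higher and 21.7% lower (27.1% and 32.3% with the block). Both called higher were the phosphatases that reactivate the complex, Pdp1 (54.2 ± 5.67 to 99.4 ± 15.2 FPKM, log2 fold change 0.87) and Pdp2 (18.4 ± 2.02 to 41.6 ± 8.70 FPKM, log2 fold change 1.16). The lower gene was the kinase Pdk2 (288 ± 25.7 to 185 ± 22.7 FPKM, log2 fold change -0.64, adjusted p = 2.62e-05). The kinases Pdk1 and Pdk3 were not called without pairing, and Pdk3 was higher with the replicate block (adjusted p = 0.0408). The remaining lists held 0 higher and 2 lower of 3 carnitine genes, 1 higher and 1 lower of 5 further mitochondrial genes, 2 higher and 1 lower of 7 further thioesterases, and 0 higher and 1 lower of 4 ketone body genes. With the replicate block the lower genes of the last 3 lists numbered 3, 3 and 2, and Crot was added to the lower carnitine genes (adjusted p = 0.00192).

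**Figure D4:**
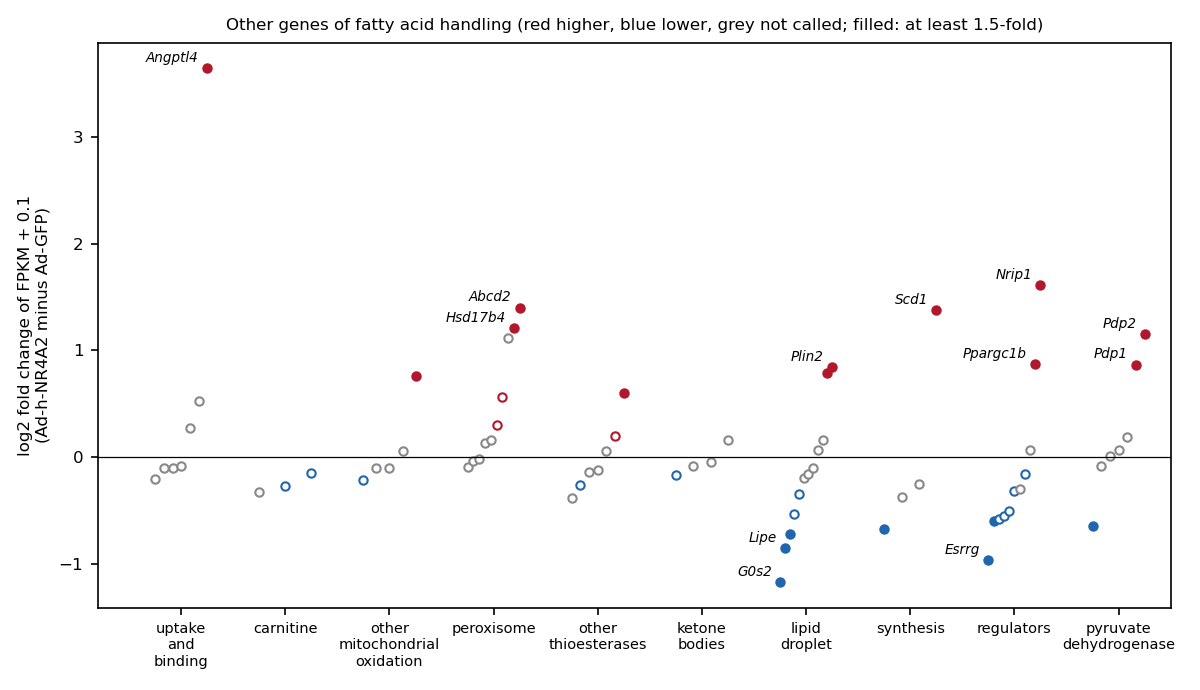
Log2 fold change of FPKM + 0.1 (y axis, Ad-h-NR4A2 minus Ad-GFP) for 70 further genes of fatty acid handling by list (x axis), with 1 point per gene and names for the 12 largest changes among those called with a ratio of at least 1.5. Angptl4 lies highest at 3.64 and G0s2 lowest at -1.17. Of the 11 regulators, 7 are called lower, against 21.7% of all genes tested.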

How the data were processed

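RNA of 12 ARVM samples (6 per group) was sequenced as stranded, paired-end mRNA libraries. Per the labels and the methods, the authors used STAR for alignment to Rn5 and Cufflinks for the expression of RefSeq transcripts. The FPKM values deposited by the authors are scaled to the mapped fragments of each sample and are not counts. Of 225024 values, 8 carry a failed status, 0 of them in the 38 genes.

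For gene names with several transcripts, the one with the highest mean was used. The test covered the 10950 genes with values above 0 throughout. Group means of log2(FPKM + 0.1) were compared with limma 3.58.1 (lmFit, eBayes with trend; R 4.3.3), two-sided and unpaired, with Benjamini-Hochberg adjustment over all genes. An exact permutation test (two-sided, samples taken as unpaired) was applied to single values. Summaries and plots used Python 3.11.15, pandas 2.3.3 and Matplotlib 3.10.9. Depth was read from values of at most 6 fragments on transcripts of at least 800 nucleotides. Of these, 99.2% to 99.8% per sample were whole within 0.05. Fragment numbers cover counting error only.

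Groups and numbers come from the sample labels. Deviations from the group means, over all tested genes, correlated between same-numbered samples at 0.347 to 0.623 in all 6 pairs. Other samples correlated at -0.0998 on average, a negative value that follows from centring each group and adds no separate evidence. The numbers were therefore taken to pair the samples, and the fit with the number as a replicate block is given where it changed the call of one of the 38 genes or of another gene named, or moved a count by over 1.5 times.

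Values in all samples are summarised for genes with an adjusted p below 0.05 and a ratio of at least 1.5, and for the gene with the highest FPKM of each role. Of the other pathway genes, at most 12 with both criteria are named for their values, by size of log2 fold change. Lpl, Cpt1b, Acadm, Pdk2 and further genes are described beyond this rule and were chosen after their values were seen. The 38 genes and all lists were chosen with earlier results of these data known. Alternatives were each sample left out, the replicate block, limma without trend, pseudocounts of 1 and 0.01, summed transcripts, no filter or a minimum mean FPKM of 1, quantile normalization, and the TPM scale.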

Additional observations from a re-analysis of the deposited data

Results flagged for a closer look

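Among 76 checks of a single sample against the rest of its group, 1 per gene and group for the 38 genes, 3 samples lay far from the others. Chance alone gives about 1 in 20, so that 3 of 76 is no more than chance gives. Acsl6 was 12.1 FPKM in Ad-h-NR4A2 sample 26, against 10.2 to 10.6 FPKM in the other samples of the group. Eci1 was 250 FPKM in Ad-GFP sample 26, against 283 to 296 FPKM in the others. Acot1 was 0.0923 FPKM in Ad-h-NR4A2 sample 29, the sample with 3 Acot1 fragments, against 0.259 to 0.356 FPKM in the others.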

How the results depend on the processing

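Over 21 alternatives, 796 log2 fold changes of the 38 genes were recalculated. Of these, 742 kept direction and side of the threshold, 17 no longer passed, 26 newly passed, and 11 changed sign. All 11 were values of Acsl4, Ech1 and Eci1, which were near 0 and not called. Quantile normalization gave 0.0361 for Acsl4 and -0.0449 for Ech1, the TPM scale gave -0.0037 for Ech1, and single samples left out gave -0.0562 to 0.0418 for Acsl4, -0.0185 to 0.0512 for Ech1 and -0.061 to 0.0037 for Eci1. Only Acadm, Acaa1a and Acot1 lost their call, in up to 6 alternatives each, with an adjusted p of up to 0.0648. Besides the samples named above, these were no filter on low values (adjusted p = 0.0633, 0.0526 and 0.0612) and, for Acaa1a, the TPM scale (0.0519). With the replicate block the lower genes numbered 20 in place of 11, and the lower genes of the other lists 32 in place of 19. Among the 38 genes, the lower genes numbered 13 on the TPM scale and 15 with quantile normalization. The block changed no other call than the 11 given in the report among the 38 genes. When single samples were left out, the number of lower genes with a ratio of at least 1.5 was 2 to 4, and the higher genes with this ratio remained 3 in number. Quantile normalization and the TPM scale moved the median of all genes to -0.04, from -0.02. Depth limits Acot1 and Echs1, with at most 42 fragments, more than the other genes.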

Other observations

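Some samples were at the edge of their group in several genes. Ad-h-NR4A2 sample 27 had the highest value of its group for Cpt1a (59.1 FPKM), Ucp2 (297 FPKM) and Ucp3 (7.74 FPKM), and the lowest for Fabp3 (1398 FPKM), Lpl (267 FPKM), Acot2 (42.5 FPKM) and Pdk4 (122 FPKM). Sample 25 had the highest Acadm, Acads and Hadh of both groups. In Ad-GFP sample 25 these were 1198, 518 and 307 FPKM. In Ad-h-NR4A2 sample 25 they were 1425, 486 and 291 FPKM.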
